A study of Mus musculus with 10 samples.

Results

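Gfap, Aqp4, Aldoc, Slc1a2, Slc1a3, Aldh1l1, Gja1, Cspg5 and Clu are genes that astrocytes express strongly, and they were followed here through RNA libraries of purified microglia. They are 9 of the 53715 genes in the count tables, chosen by name and found by their symbol, and the choice was made with the difference between midbrain and striatum and the spread between replicates already in view. Those differences and that spread are therefore given as a description, with no test. Microglia were isolated with magnetic beads against CD11b, a surface protein of myeloid cells, from the midbrain (Mdb) and striatum (Str) of untreated male C57BL/6 mice (substrain C57BL/6 J in the study's methods) aged 3 months. The brains were perfused, digested with papain and cleared of myelin on Percoll before the beads were added, and the poly-A RNA of the cells was read from its 3′ ends with MARS-seq adapted to bulk samples. The study asked how microglia of these regions differ in health, in 2 independent experiments, a pilot (Exp 1) and a second cohort (Exp 2). Replicates 1 and 2 of each region in Exp 1 and replicates 1 and 3 of each region in Exp 2 make 8 libraries. The study took both regions from the same mice, but which libraries share a mouse is not given. For another 2 libraries of Exp 2 the title and the other label disagree on the region, so they enter no comparison below.

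Astrocytes are the glial cells that take up glutamate after synaptic release, buffer water and ions at the vessel wall, and pass metabolites to neurons. They share sheets of gap junctions and wrap vessels with end-feet, and their processes lie against microglia, oligodendrocytes and synapses. Microglia are macrophages of yolk sac origin and are not the cells in which these 9 genes are classically expressed. Their summed level here was small beside that of microglial genes. In bulk samples, fewer cells of a type and less RNA per cell cannot be told apart. The 9 genes fall into glutamate transporters (Slc1a2, Slc1a3), proteins of the cytoskeleton, end-feet and junctions (Gfap, Aqp4, Gja1), enzymes (Aldoc, Aldh1l1) and secreted or matrix proteins (Clu, Cspg5).

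The region around the start of transcription is shown for 4 of the genes, because Aldoc differed widely between striatum replicates in both experiments, Slc1a3 and Gja1 differed less, and Gfap is the classical astrocyte gene. RefSeq windows from 250 bases before to 50 bases after the start (GRCm38.p6) were matched for 6 of the 9 genes. Aqp4, Cspg5 and Clu had no entry. Capitals mark a match to TTCNNNGAA, the motif of STAT factors, or to TTGGC, a motif of nuclear factor I, both searched on either strand, and each sequence reads 5′ to 3′ on the strand of its gene. The windows are chr11:102897151-102897450 on the minus strand for Gfap, chr11:78322823-78323122 on the plus strand for Aldoc, chr15:8710758-8711057 on the minus strand for Slc1a3 and chr10:56377050-56377349 on the plus strand for Gja1.
Gfap: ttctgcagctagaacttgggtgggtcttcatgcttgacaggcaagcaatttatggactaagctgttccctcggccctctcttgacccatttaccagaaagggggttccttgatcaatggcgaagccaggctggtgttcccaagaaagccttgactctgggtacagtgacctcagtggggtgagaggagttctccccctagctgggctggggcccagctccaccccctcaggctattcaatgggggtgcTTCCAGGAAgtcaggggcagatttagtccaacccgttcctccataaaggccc
Aldoc: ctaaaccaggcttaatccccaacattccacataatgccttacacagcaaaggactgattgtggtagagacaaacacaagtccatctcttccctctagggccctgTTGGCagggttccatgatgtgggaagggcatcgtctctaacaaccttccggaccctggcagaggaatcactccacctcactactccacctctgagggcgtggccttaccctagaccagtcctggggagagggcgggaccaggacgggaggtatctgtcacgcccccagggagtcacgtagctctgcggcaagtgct
Slc1a3: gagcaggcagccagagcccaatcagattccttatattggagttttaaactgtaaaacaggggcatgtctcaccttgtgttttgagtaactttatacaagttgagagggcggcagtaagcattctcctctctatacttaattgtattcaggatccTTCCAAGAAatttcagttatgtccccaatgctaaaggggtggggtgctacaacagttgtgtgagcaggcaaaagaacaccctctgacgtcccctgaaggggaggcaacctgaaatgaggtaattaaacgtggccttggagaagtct
Gja1: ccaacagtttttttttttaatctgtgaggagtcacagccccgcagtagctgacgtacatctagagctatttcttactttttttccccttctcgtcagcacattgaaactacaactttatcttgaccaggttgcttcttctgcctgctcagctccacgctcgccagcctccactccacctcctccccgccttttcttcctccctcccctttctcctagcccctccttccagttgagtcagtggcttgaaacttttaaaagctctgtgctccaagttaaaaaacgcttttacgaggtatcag
The Gfap window held TTCCAGGAA with its first base at -2 from the start, and the Slc1a3 window held TTCCAAGAA at -96. The Aldoc window held TTGGC at -146. No match to either motif was found in the Gja1 window, and ACAAAG, a SOX motif, matched in none of the 4. Over all 32851 windows of the same length, 8.298% held TTCNNNGAA, 46.71% held TTGGC and 18.71% held ACAAAG. A match describes letters and not a bound site.

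The total counts of the 8 libraries ranged from 575709 (Str Exp 2 replicate 3) to 8463782 (Str Exp 1 replicate 2). Levels are given as CPM, counts scaled to the library total after a TMM correction for RNA composition, and the level worth 3 counts, used as a floor, was 0.358 to 5.26 CPM. All 18 microglial markers examined, Cx3cr1, P2ry12 and Tmem119 among them, lay above that floor in every library, with a summed level of 38228 to 58268 CPM. Oligodendrocyte genes summed to 6334 to 12122 CPM. The shallow Str Exp 2 replicate 3 stands apart by depth. Mdb Exp 1 replicate 1 stands apart by its ependymal list, which summed to 4345 CPM against 619 CPM or less in the other 7. Foxj1 and Ccdc153 of that list had only 95.6 and 84.6 CPM there, so other genes on it made up most of the sum. P-values measure the spread between these libraries only.

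The 9 astrocyte genes together took 0.0444% to 0.233% of the counts of a library. In Exp 1 their summed level was 994 and 1269 CPM in the midbrain replicates, and 1255 and 448 CPM in the striatum replicates. The Exp 2 sums were 749 and 770 CPM in the midbrain, and 2393 and 759 CPM in the striatum. The lowest and the highest sum, which are 5.34-fold apart, thus both came from the striatum, and in each experiment the midbrain replicates lay close together while the striatum replicates did not. The midbrain sums differed 1.28-fold in Exp 1 and 1.03-fold in Exp 2, against 2.80-fold and 3.15-fold in the striatum.

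Clu and Aldoc dominated this signal, with 40.9% and 28.6% of the CPM of the 9 genes averaged over the 8 libraries. Per kilobase of exon, mean levels ran from Clu (129 CPM per kb) and Aldoc (94.8) through Slc1a2 (12.5), Slc1a3 (9.07), Aqp4 (7.68), Aldh1l1 (3.57) and Cspg5 (2.00) to Gfap (0.927) and Gja1 (0.774). The ranges over the 8 libraries overlapped for each pair of neighbours in this order. Reads taken from 3′ ends need not scale with exon length, so the order holds for this scale only. Gfap, the gene most often used to stain astrocytes, was thus near the bottom, with 38 counts in its best covered library.

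**Figure D1:**
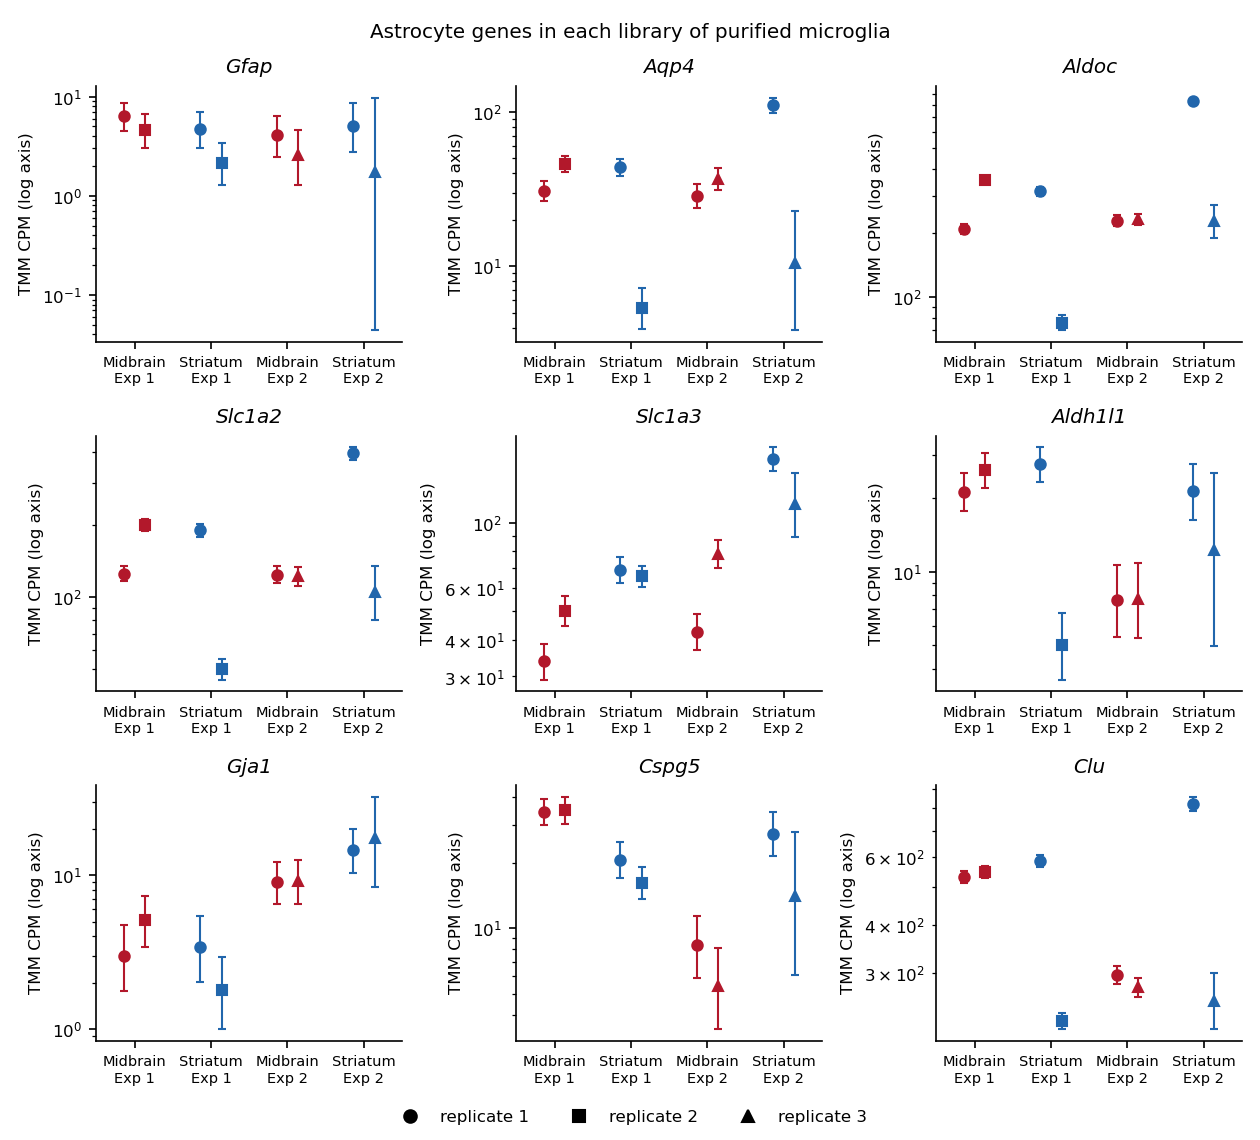
Level of each of the 9 astrocyte genes in the 8 libraries, in TMM CPM on a log axis, with midbrain in red and striatum in blue and the symbol giving the replicate. Bars are exact 95% binomial intervals and cover counting error only. For Aqp4 the striatum replicates lie at 43.6 and 5.36 CPM in Exp 1 and at 110 and 10.5 CPM in Exp 2, and the midbrain replicates between 28.6 and 46.2 CPM.

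Slc1a2 (ENSMUSG00000005089.15, chr2:102658659-102790784, plus strand, GRCm38) encodes GLT-1, the transporter that clears most synaptic glutamate in the forebrain. Its level was 125 and 199 CPM in the Exp 1 midbrain libraries and 189 and 50.1 CPM in the Exp 1 striatum libraries. In Exp 2 it was 124 and 122 CPM in the midbrain, and 396 and 105 CPM in the striatum. The regions overlapped in both experiments, and each time 1 striatum library lay below the midbrain pair and the other between or above it. With fold changes taken as midbrain over striatum on the log2 scale, the value was 0.73 (SE 0.49) in Exp 1 and -0.95 (SE 0.46) in Exp 2. The antisense gene Gm13872 overlaps an exon of Slc1a2 and had 10 counts in the 8 libraries together. Strand was ignored and reads shared by several genes were dropped, so reads in that overlap count for neither gene.

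Slc1a3 (ENSMUSG00000005360.14, chr15:8634124-8710764, minus strand) encodes GLAST, the glutamate transporter of cerebellar and of developing astrocytes, and behaved unlike Slc1a2. The midbrain libraries of Exp 1 had 33.8 and 50.04 CPM and those of the striatum 69.0 and 65.7 CPM. The Exp 2 values were 42.5 and 78.5 CPM in the midbrain, and 165 and 116 CPM in the striatum. Each striatum library lay above each midbrain library of its own experiment, although not across experiments. The order of both striatum libraries above both midbrain libraries was also found for 22.8% of all genes tested in Exp 1 and for 17.3% in Exp 2. Its log2 fold change was -0.71 (SE 0.23) in Exp 1 and -1.35 (SE 0.35) in Exp 2, where it was -0.55 with the 2 unassigned libraries added in the regions of their titles. Slc1a3 was the only one of the 9 genes whose fold change had the same sign in both experiments.

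Aqp4 (ENSMUSG00000024411.9) encodes the water channel of astrocytic end-feet and had the widest range of the 9, 20.6-fold between its lowest and highest library. It stood at 30.8 and 46.2 CPM in the midbrain of Exp 1 and at 43.6 and 5.36 CPM in the striatum. In Exp 2 the midbrain had 28.6 and 36.9 CPM and the striatum 110 and 10.5 CPM, the last from 6 counts. The midbrain values of both experiments thus lay within a narrow band, and the striatum libraries of Exp 2 lay above and below it, while in Exp 1 one lay inside it and the other below. On the log2 scale the midbrain differed from the striatum by 1.51 (SE 0.68) in Exp 1 and -0.92 (SE 0.64) in Exp 2.

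Gfap (ENSMUSG00000020932.14, chr11:102887336-102900912, minus strand), the intermediate filament protein that reactive astrocytes raise, was barely detected. It had 6.32 and 4.60 CPM in the midbrain and 4.74 and 2.15 CPM in the striatum of Exp 1. In Exp 2 it had 4.06 and 2.58 CPM in the midbrain, and 5.09 and 1.75 CPM in the striatum. The last value is a single count, with an exact 95% binomial interval of 0.044 to 9.77 CPM, which spans all the others. The regional log2 fold change of Gfap was 0.85 (SE 0.50) in Exp 1 and -0.34 (SE 0.73) in Exp 2, where the single count leaves it poorly measured.

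Gja1 (ENSMUSG00000050953.10, chr10:56377330-56402513, plus strand) encodes connexin 43, the main gap junction protein of astrocytes. Its Exp 1 levels were 2.99 and 5.13 CPM in the midbrain and 3.41 and 1.79 CPM in the striatum. Its Exp 2 levels were 8.96 and 9.16 CPM in the midbrain, and 14.5 and 17.5 CPM in the striatum. All 4 libraries of Exp 2 were above all 4 of Exp 1, an order shared by 6.81% of the genes tested. The regional log2 fold change was 0.73 (SE 0.55) in Exp 1 and -0.78 (SE 0.45) in Exp 2.

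Aldoc (ENSMUSG00000017390.15, chr11:78322968-78327781, plus strand), the brain form of the glycolytic enzyme aldolase, had, as Slc1a2 did, its lower striatum library below the midbrain pair in both experiments. The midbrain had 209 and 356 CPM and the striatum 314 and 76.0 CPM in Exp 1. In Exp 2 the midbrain had 229 and 232 CPM, and the striatum 831 and 228 CPM. The striatum library with the lower value came close to the midbrain in Exp 2 but lay well under it in Exp 1. The log2 fold change was 0.83 (SE 0.53) in Exp 1 and -1.06 (SE 0.45) in Exp 2.

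Aldh1l1 (ENSMUSG00000030088.15, chr6:90486427-90600203, plus strand) encodes a folate enzyme whose promoter is widely used to label astrocytes. The Exp 1 libraries had 21.3 and 26.0 CPM in the midbrain and 27.5 and 5.01 CPM in the striatum. Those of Exp 2 had 7.68 and 7.75 CPM in the midbrain, and 21.4 and 12.3 CPM in the striatum. In Exp 2 both striatum libraries lay above both midbrain libraries, as for 17.3% of all genes, and the lower striatum value rests on 7 counts. In Exp 1 the striatum held both the highest and the lowest value. Its log2 fold change was 1.18 (SE 0.58) in Exp 1 and -1.31 (SE 0.47) in Exp 2.

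Clu (ENSMUSG00000022037.15, chr14:65968483-65981547, plus strand) encodes clusterin, a secreted chaperone and apolipoprotein, and was the most abundant of the 9. It reached 530 and 547 CPM in the midbrain and 583 and 225 CPM in the striatum of Exp 1. In Exp 2 it reached 296 and 275 CPM in the midbrain, and 822 and 254 CPM in the striatum. The striatum replicates lay on either side of the midbrain pair in both experiments. Midbrain over striatum was 0.57 (SE 0.35) on the log2 scale in Exp 1 and -0.81 (SE 0.42) in Exp 2.

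Cspg5 (ENSMUSG00000032482.9, chr9:110243783-110262576, plus strand) encodes neuroglycan C, a chondroitin sulfate proteoglycan of the neural matrix that oligodendrocyte precursors and neurons also make. Its values in Exp 1 were 34.4 and 35.0 CPM in the midbrain, and 20.7 and 16.2 CPM in the striatum. Its values in Exp 2 were 8.32 and 5.40 CPM in the midbrain, and 27.3 and 14.0 CPM in the striatum. The regions did not overlap in either experiment, but the midbrain was the higher region in Exp 1 and the lower one in Exp 2. Both midbrain libraries lay above both striatum libraries for 20.2% of all genes in Exp 1, and both striatum libraries above both midbrain libraries for 17.3% in Exp 2. The log2 fold change was 0.95 (SE 0.23) in Exp 1 and -1.80 (SE 0.49) in Exp 2.

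Of the 9 genes, 8 had a log2 fold change above 0 in Exp 1, that is higher in the midbrain, with a median of 0.83, and all 9 were below 0 in Exp 2, with a median of -0.95. Over all genes the median was 0.018 in Exp 1 and -0.00096 in Exp 2. The experiments share no library. In the fit of both experiments at once, 4 of the 9 genes were higher and 5 lower in the midbrain, with a median of -0.046 and Slc1a3 the lowest at -0.99 (SE 0.24). With all 4 midbrain libraries set against all 4 striatum libraries, each of the 9 overlapped. The striatum lay above the midbrain in all 8 libraries for 2.72% of all genes tested, and the midbrain above the striatum for 4.18%. In Exp 2 alone, Slc1a3, Aldh1l1, Gja1 and Cspg5 had both striatum libraries above both midbrain libraries, as did 17.3% of all genes, and in Exp 1 only Slc1a3 did, beside 22.8%. In Exp 2 none of the 9 had the opposite order, which 24.5% of all genes had.

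The sign of the regional difference turned with 1 striatum library for 5 of the 9 genes in Exp 1 and for 4 in Exp 2. Without Str Exp 1 replicate 2, 6 of the 9 genes were lower and 3 higher in the midbrain of Exp 1, and the median went from 0.83 to -0.17. Aqp4 went from 1.51 to -0.19, and Aldh1l1 from 1.18 to -0.20. Without Str Exp 2 replicate 1, 5 of the 9 were lower and 4 higher in Exp 2, with a median of -0.0035, and Aqp4 went from -0.92 to 1.499. Slc1a3, Gja1 and Cspg5 kept their sign in both experiments when either of these libraries was left out.

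**Figure D2:**
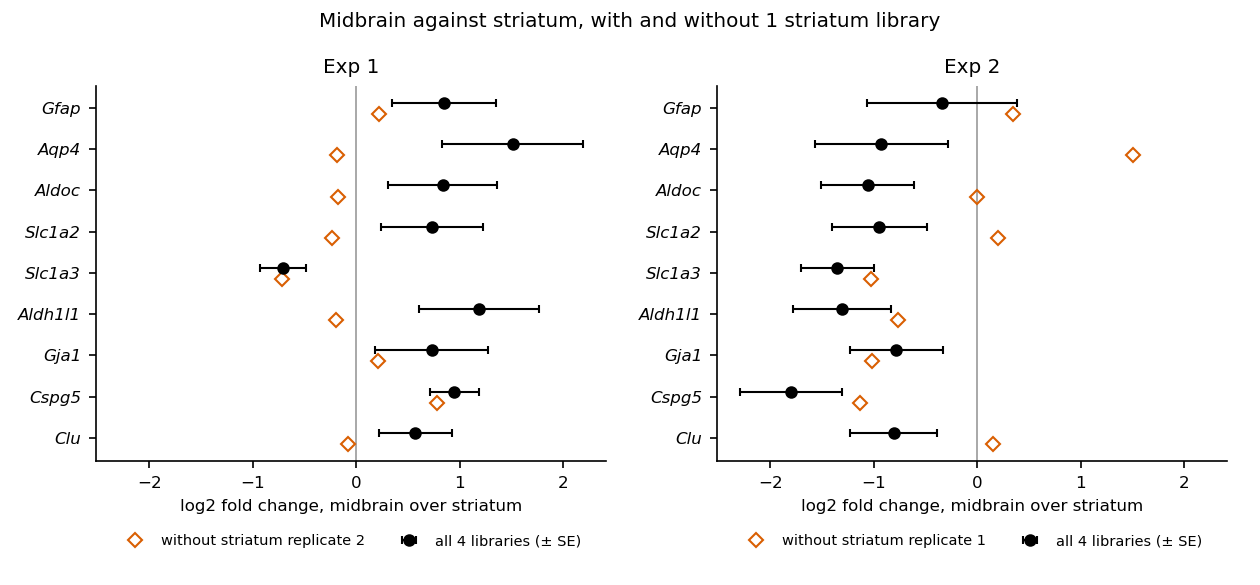
Log2 fold change of midbrain over striatum for each astrocyte gene in Exp 1 (left) and Exp 2 (right), from all 4 libraries of the experiment (black, bars ± SE) and after leaving out the striatum replicate named in the legend (open diamonds). Aqp4 moves from 1.51 to -0.19 in Exp 1 and from -0.92 to 1.499 in Exp 2.

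The spread between striatum replicates was described gene by gene in each experiment. The difference is given as log2 CPM of the lower-numbered replicate minus the other, with a prior count of 2. In Exp 1 it ranged over the 9 genes from 0.07 (Slc1a3) to 2.92 (Aqp4), with a median of 1.37, and was above 0 for all 9. In Exp 2 it ranged from -0.26 (Gja1) to 3.34 (Aqp4), with a median of 1.33, and was above 0 for 8 of 9. Aqp4, Aldoc, Slc1a2 and Clu differed by more than 2-fold in both experiments, Aldh1l1 only in Exp 1 and Gfap only in Exp 2. The median over all genes was 0.011 in Exp 1 and 0.097 in Exp 2, and 9.45% and 21.3% of all genes were more than 2-fold higher in the lower-numbered replicate. In the midbrain, the median over the 9 genes was -0.56 in Exp 1 and -0.013 in Exp 2, and none of the 9 differed by more than 2-fold in either, as only 5.03% and 14.5% of all genes did. Replicate numbers do not tie an Exp 1 library to an Exp 2 library.

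The striatum replicates were also compared for 44 other astrocyte genes, a list that holds Slc6a11, Agt, Mlc1, Kcnj10 and the like and none of the 9. Between the striatum replicates of Exp 1, 41 of the 42 genes that passed the filter were higher in replicate 1, 33 of them (78.6%) by more than 2-fold, with a median difference of 1.72. In Exp 2, 38 of 42 were higher in replicate 1, 32 of them (76.2%) by more than 2-fold, with a median of 1.75. Their levels summed to 7059 and 2679 CPM in the Exp 1 striatum, and to 8278 and 2896 CPM in that of Exp 2.

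**Figure D3:**
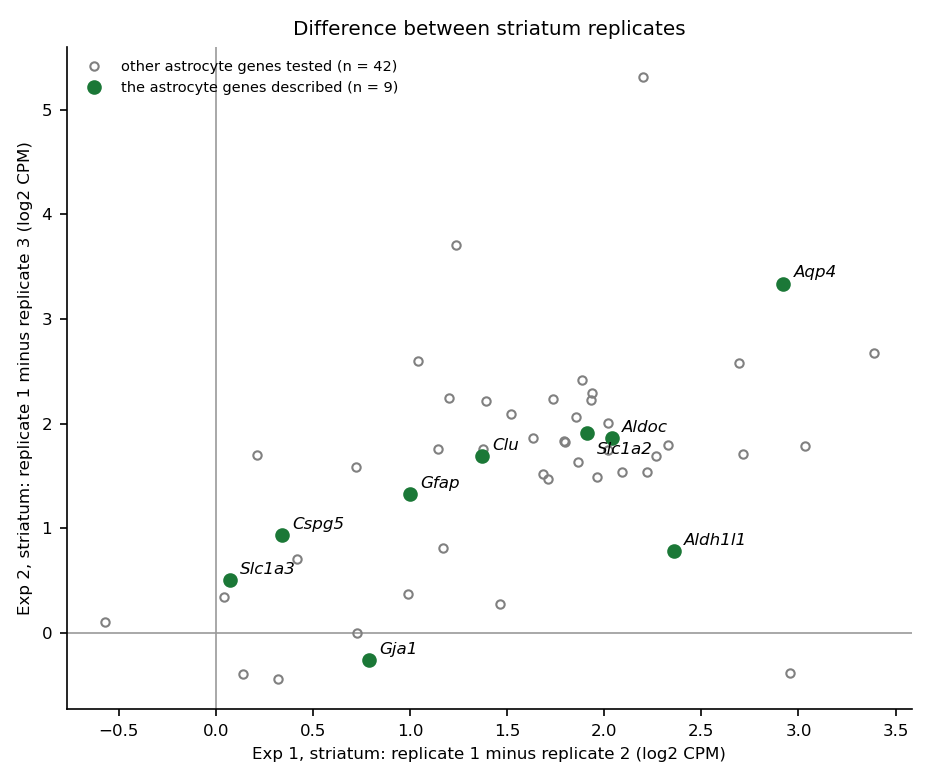
Difference between the striatum replicates of Exp 1 (x axis) and of Exp 2 (y axis), in log2 CPM, for the 9 astrocyte genes (filled) and 42 other astrocyte genes (open). Aqp4 lies at 2.92 and 3.34, Slc1a3 and Gja1 lie near 0 in at least 1 experiment, and most open circles lie above 1 on both axes.

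The sum of the microglial markers did not share this spread. Their summed level differed 1.01-fold between the striatum replicates of Exp 1 and 1.02-fold between those of Exp 2. Single markers varied more. In the Exp 2 striatum P2ry12 had 2530 and 5140 CPM and Cx3cr1 1985 and 2926 CPM, in the order opposite to the astrocyte genes. In the Exp 1 striatum P2ry12 had 1728 and 1283 CPM and Cx3cr1 1188 and 1281 CPM. Several other lists did move with the astrocyte genes, and each was higher in the lower-numbered striatum replicate. The 10 oligodendrocyte genes, all above the floor in every library, summed to 11976 and 6962 CPM in Exp 1 and to 12122 and 6334 CPM in Exp 2. Mbp, which encodes myelin basic protein, was at 4041 and 2307 CPM and then at 3833 and 2826 CPM. The ependymal list has 8 genes, with Foxj1 and Ccdc153 of the ciliated cells of the ventricle wall and also Ttr. It summed to 537 and 193 CPM in Exp 1 and to 230 and 64.9 CPM in Exp 2. Only 3 of its genes were above the floor in Str Exp 2 replicate 3. The 8 genes of fibroblasts and meninges summed to 94.2 and 51.4 CPM, and to 106 and 40.3 CPM, with 2 of them above the floor in Str Exp 2 replicate 3. The 8 genes of oligodendrocyte precursors summed to 478 and 384 CPM, and to 235 and 114 CPM, with 4 of them above the floor in Str Exp 2 replicate 3. The share of counts from mitochondrial genes, 0.219% and 0.0474% in the Exp 1 striatum and 0.449% and 0.244% in the Exp 2 striatum, was likewise higher in the lower-numbered replicate. Their part in the difference between replicates was not tested.

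The endothelial and neuronal lists did not keep this order in both experiments. Endothelial genes, 10 in number, summed to 575 and 551 CPM in the Exp 1 striatum, and to 140 and 149 CPM in the Exp 2 striatum. Only 4 of them were above the floor in Str Exp 2 replicate 3. The 10 neuronal genes summed to 31.5 to 180 CPM over all 8 libraries, and Syt1, a synaptic vesicle protein, had no count in 3 of them and at most 4 counts in the others. In the striatum of Exp 1 the neuronal sum was 143 and 107 CPM, in the order of the astrocyte genes. In that of Exp 2 it was 39.6 and 77.1 CPM, in the reverse order. The last value is poorly measured, since in Str Exp 2 replicate 3 only 1 of the 10 neuronal genes lay above the floor and 5 had no count. The depth of these libraries was 4936234 and 8463782 counts in Exp 1, and 2820369 and 575709 in Exp 2, so the library with less astrocyte signal was the deeper one in Exp 1 and the shallower one in Exp 2.

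**Figure D4:**
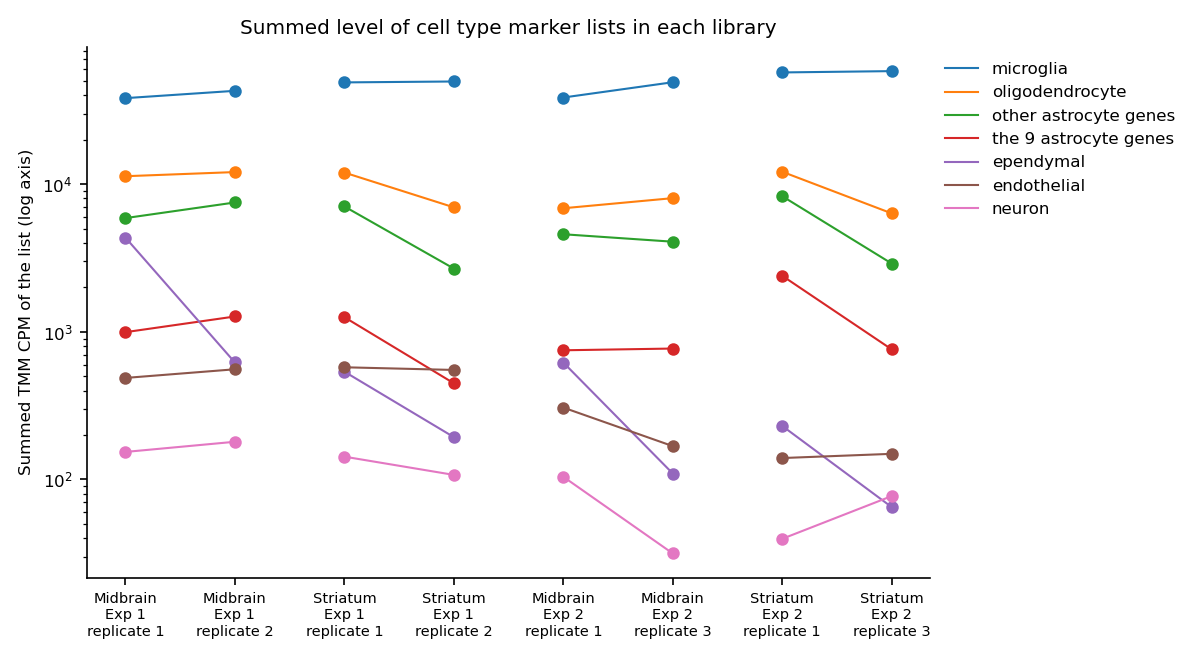
Summed level of the microglial, oligodendrocyte, astrocyte, ependymal, endothelial and neuronal lists in the 8 libraries, in TMM CPM on a log axis, with a line joining the replicates of a group. The lists for oligodendrocyte precursors and for fibroblasts and meninges are not drawn. The striatum replicates lie at 1255 and 448 CPM in Exp 1 and at 2393 and 759 CPM in Exp 2 for the 9 astrocyte genes, while the microglial line is nearly flat there.

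The make-up of the astrocyte signal also varied. Slc1a3 made up 3.40% and 3.94% of the counts of the 9 genes in the midbrain of Exp 1, and 5.50% and 14.7% in the striatum. In Exp 2 its share was 5.67% and 10.2% in the midbrain, and 6.88% and 15.2% in the striatum. The shares of 14.7% (exact 95% binomial interval 13.6% to 15.8%) and 15.2% (11.99% to 19.0%) belong to the striatum libraries in which the summed signal was lower. Intervals cover counting error only. Aqp4 had the opposite order, with 1.20% and 1.39% in those libraries against 3.47% and 4.62% in the other striatum library of each experiment. Clu held 43.1% to 53.4% of the counts in Exp 1 and 33.5% to 39.5% in Exp 2, so the experiments did not overlap in this share. Its level did overlap, at 225 to 583 CPM in Exp 1 and 254 to 822 CPM in Exp 2.

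**Figure D5:**
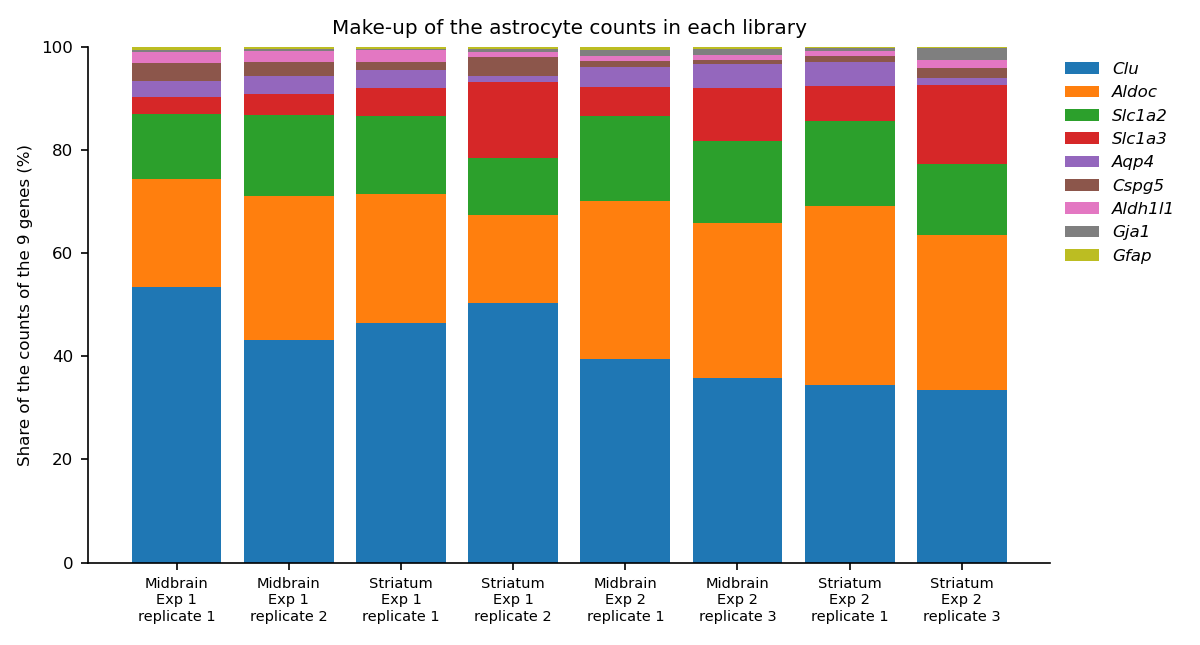
Share of each gene in the counts of the 9 astrocyte genes, in percent, for the 8 libraries. Slc1a3 (red) takes 14.7% and 15.2% in the right-hand striatum bar of each experiment, and Clu (blue) is smaller in each Exp 2 bar than in each Exp 1 bar.

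Exp 2 was compared with Exp 1 in a fit of all 8 libraries with region as a covariate, a comparison on which the 9 genes had not been chosen. The fit took the 8 libraries as independent, although midbrain and striatum libraries share mice. Its p-values make no allowance for that, and fewer mice than libraries stand behind them. Gja1 was the 1 gene of the 9 called, with 3.60-fold more in Exp 2 (log2 fold change 1.85, SE 0.40, limma's adjusted p = 0.0189), beside 10.5% of all genes. The mean level was 3.33 CPM in Exp 1 and 12.5 CPM in Exp 2. The call was lost without Mdb Exp 1 replicate 1 (adjusted p = 0.0825 by limma) and without Str Exp 2 replicate 1 (adjusted p = 0.0534 by limma), and over the 16 alternatives that tested Gja1 the fold change stayed above 0. Slc1a3 missed the threshold with a log2 fold change of 0.79 (limma's adjusted p = 0.0552), and passed it in 6 of 17 alternatives, edgeR and DESeq2 among them. Cspg5 was at -1.29 (limma's adjusted p = 0.0981) and passed without Str Exp 2 replicate 1 (adjusted p = 0.0207 by limma).

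The other 6 genes had adjusted p-values of 0.426 or more in limma and log2 fold changes between -0.69 (Aldh1l1) and 0.66 (Aldoc), with standard errors from 0.39 (Clu) to 0.68 (Aqp4). Of these, Aldh1l1 passed the threshold without Str Exp 1 replicate 2 (log2 fold change -1.20, adjusted p = 0.0195 by limma), and the others passed in no alternative. The study calls the experiments independent, and whatever differs between them, depth included, cannot be told apart here.

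The regional comparison was tested on the 44 other astrocyte genes, a list also chosen with earlier results of these data known. They come from the same libraries and moved with the 9 genes between striatum replicates, so they are no independent check on those 9. In Exp 1, 39 of the 43 tested were higher in the midbrain, with a median log2 fold change of 0.81, and none was called at an unadjusted p under 0.01 with limma, beside 2.64% of all genes. At an unadjusted p under 0.05 it was 8 of them, beside 10.9% of all genes, while at 0.01 edgeR called 0, beside 2.67%, and DESeq2 called 1, beside 2.56%. In Exp 2, 37 of 42 were lower in the midbrain, with a median of -0.81, and 3 were called, beside 3.47% of all genes, with 14 at an unadjusted p under 0.05, beside 10.6%. The median thus had opposite signs in the 2 experiments, as for the 9 genes. In the joint fit none was called by limma at an adjusted p under 0.05, beside 1.06% of all genes, and 35 of 42 were higher in the midbrain, with a median of 0.26. At an unadjusted p under 0.05 it was 4 of 42, beside 14.6% of all genes, and at the adjusted threshold edgeR called 0, beside 1.69%, and DESeq2 called 2, beside 3.94%. In Exp 1, 37 genes were called without Str Exp 1 replicate 1, when 16.8% of all genes were, and 3 without Str Exp 1 replicate 2, when 4.22% were. In Exp 2, 22 were called without Str Exp 2 replicate 3, beside 2.91%, and 6 without Mdb Exp 2 replicate 3, beside 10.1%.

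The 3 genes called in Exp 2 were Lhx2, Id4 and Mt1, named after their values were seen, except Lhx2. Lhx2, a homeodomain factor of telencephalic astrocytes, fell by 2.05 on the log2 scale in the midbrain (SE 0.64, limma's unadjusted p = 0.00853), and the call was lost in 7 of 11 alternatives, edgeR, DESeq2 and both placements of the unassigned libraries among them (unadjusted p up to 0.0774). Those 7 also hold the fits without Mdb Exp 2 replicate 1, Mdb Exp 2 replicate 3 or Str Exp 2 replicate 3. It had 1.71 and 2.35 CPM in the midbrain and 7.63 and 10.5 CPM in the striatum. In Exp 1 it had 6.82 and 2.30 CPM in the midbrain and 10.8 and 8.58 CPM in the striatum, and its log2 fold change was -1.21 (SE 0.50). All 4 striatum libraries were above all 4 midbrain libraries, as for 2.72% of all genes, and the joint value was -1.45 (SE 0.40, limma's adjusted p = 0.115), with adjusted p-values from 0.0384 (DESeq2, the 1 of 15 alternatives to pass) to 0.771 (unassigned libraries placed by title). Id4, an inhibitor of helix-loop-helix factors, fell by 1.61 (SE 0.47, limma's unadjusted p = 0.00554) in Exp 2, a call lost in 6 of 13 alternatives, those without Mdb Exp 2 replicate 1, Str Exp 2 replicate 1 or Str Exp 2 replicate 3 among them (unadjusted p up to 0.0660), and had a value of -0.19 (SE 0.28) in Exp 1. Mt1, a metallothionein that other cells also express, rose by 1.06 (SE 0.31, limma's unadjusted p = 0.00594) in Exp 2 and had a value of 0.46 (SE 0.18) in Exp 1. The Exp 2 call was lost in 4 of 13 alternatives, with values of 0.62 without Mdb Exp 2 replicate 1, 1.25 without Str Exp 2 replicate 1, 0.90 without Str Exp 2 replicate 3 and 0.16 with the unassigned libraries placed by title (unadjusted p = 0.757 by limma). Its joint value was 0.76 (SE 0.20, limma's adjusted p = 0.103), which passed in 3 of 17 alternatives, DESeq2 among them (adjusted p = 0.0220), and was 0.28 with the unassigned libraries placed by title (adjusted p = 0.916 by limma).

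Of 5 genes that mark astrocytes of particular regions, 4 had opposite signs in the 2 experiments, as 8 of the 9 genes did. Agt, the angiotensinogen of midbrain and hindbrain astrocytes, had a log2 fold change of 1.00 in Exp 1 (SE 0.47) and of -0.95 in Exp 2 (SE 0.50). Slc6a11, a GABA transporter, was at 0.79 (SE 0.44) and -0.85 (SE 0.41), and Itih3 at 0.69 (SE 0.44) and -0.82 (SE 0.45). Mfge8, a secreted bridge to phagocytes that striatal and cortical astrocytes express, was at 0.27 (SE 0.28) and -0.44 (SE 0.28). None of these 4 was called in Exp 1, Exp 2 or the joint fit. Lhx2 alone among the 5 regional genes had the same sign in both experiments.

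Between the experiments, 1 of the 42 other astrocyte genes tested was called, beside 10.5% of all genes. Here too the fit took libraries that share a mouse as independent. Hepacam, which encodes the adhesion protein GlialCAM, was lower in Exp 2 (log2 fold change -1.06, SE 0.22, limma's adjusted p = 0.0175). Its Exp 1 levels were 69.2, 56.6, 57.3 and 49.3 CPM, and its Exp 2 levels 32.9, 32.7, 29.4 and 8.77 CPM. These 8 libraries did not overlap between experiments, as for 10.4% of all genes tested in this direction, but an unassigned library of Exp 2 had 63.0 CPM. The call was lost without Mdb Exp 1 replicate 1 (adjusted p = 0.0921 by limma) and with the unassigned libraries placed by title (log2 fold change -0.76, adjusted p = 0.0896 by limma). Without Str Exp 1 replicate 2, 11 genes of the list were called, when 14.9% of all genes were.

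The genes whose levels ran most like the mean of the 9 were then listed, by the root mean square (RMS) difference of gene-centred log2 CPM over the 8 libraries among 14053 genes. The 6 nearest were Slc25a18 (RMS 0.171), Cxcl14 (0.186), Rnf182 (0.188), Phyhipl (0.206), Timp4 (0.207) and Enho (0.209). A gene with no change between libraries would be at 0.616. Slc25a18, a mitochondrial glutamate carrier on the list of other astrocyte genes, stood at 52.2 and 58.7 CPM in the Exp 1 midbrain, and at 57.6 and 17.3 CPM in the Exp 1 striatum. In Exp 2 it had 33.9 and 28.4 CPM in the midbrain, and 88.3 and 31.6 CPM in the striatum. Cxcl14, a chemokine, had 30.9 and 40.1 CPM and then 43.2 and 11.2 CPM in Exp 1. Its Exp 2 levels were 20.1 and 20.4 CPM in the midbrain, and 52.7 and 26.3 CPM in the striatum. Rnf182 rested on 57 counts in all. Of the 50 nearest genes, 9 were on the list of other astrocyte genes, which held 42 of the 14053 genes ranked.

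By the same measure, to a mean that includes the gene itself, Slc1a2 ranked 13 of 14053 (RMS 0.220), Clu 24 (0.270) and Aldoc 57 (0.326). Aldh1l1 ranked 460, Gfap 463, Aqp4 5227, Slc1a3 5739, Cspg5 6918 and Gja1 10337. Aqp4 varied more widely than the mean of the 9, while Slc1a3, Cspg5 and Gja1 had other orders of libraries. The most abundant genes, Clu, Aldoc and Slc1a2, were therefore also those closest to the shared pattern.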

How the data were processed

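Poly-A RNA of CD11b-purified microglia was sequenced in 10 libraries. The authors checked the reads with FastQC, aligned them to GRCm38 with STAR (version 2.5.3a), assigned them to Gencode M17 exons with featureCounts 1.6.0, ignoring strand and dropping reads shared by several genes, and deposited each library's raw counts over 53715 genes. A use of molecular identifiers is not given in the sources used here. The files hold whole-number counts with no normalization.

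Symbols were matched to 53620 identifiers, 51464 by version and 2156 without it. The 9 genes, the other lists and the tests were chosen with earlier results of these data known. Groups came from the titles, and 2 libraries whose labels disagree on region stayed unassigned. Following the study, a gene entered a fit only where at least 50% of its libraries had 6 counts or more, and TMM factors (edgeR 4.0.16) with voom and limma 3.58.1 (R 4.3.3) were fitted to all genes, within each experiment (calls at an unadjusted two-sided p under 0.01) and over both (Benjamini-Hochberg adjusted p under 0.05, with region and experiment as terms). The study's outlier step was not repeated. Printed CPM use TMM factors over all 10 libraries (13814 genes). Library totals of 575709 to 8463782 set the precision. Intervals on counts and on shares are exact binomial intervals at 95% and cover counting error only. A prior count of 2 was added for log2 CPM.

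Named genes were the 9, the 5 regional astrocyte genes, genes of the wider list called in the joint fit and the 6 genes nearest in profile. Id4 and Mt1 were added with their values in view. The fits were tested on simulated counts. Alternatives were library-size scaling, no filter, at least 10 counts in every library, edgeR's quasi-likelihood test, DESeq2 1.42.0, the replicate number as a block, thinning to the smallest library, both placements of the unassigned libraries, and leaving out each library. Motif matches were read from RefSeq windows.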

Additional observations from a re-analysis of the deposited data

Results flagged for a closer look

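Cspg5, the gene of a chondroitin sulfate proteoglycan, changed places between the experiments. On the log2 scale, its midbrain level relative to the striatum was 0.95 (SE 0.23) in Exp 1 and -1.80 (SE 0.49) in Exp 2, and in each experiment the 2 libraries of one region lay above the 2 of the other. Of all genes tested, 20.2% had both midbrain libraries on top in Exp 1, and 17.3% had both striatum libraries on top in Exp 2. Cspg5 stood at 34.4 and 35.0 CPM in the Exp 1 midbrain libraries, and at 8.32 and 5.40 CPM in those of Exp 2. The striatum had 20.7 and 16.2 CPM in Exp 1, and 27.3 and 14.0 CPM in Exp 2. The value stayed above 0 in all 11 alternatives for Exp 1 (0.78 to 1.09) and below 0 in all 12 for Exp 2 (-2.10 to -0.87). The lower striatum value of Exp 2 rests on 8 counts. The difference between the experiments was not tested, and its sign was part of what the genes were chosen on. The change of sign was not particular to Cspg5, since 8 of the 9 genes were above 0 in Exp 1 and all 9 were below 0 in Exp 2.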

How the results depend on the processing

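Median log2 fold changes of the 9 genes ranged from -0.17 to 1.31 in Exp 1 and from -1.55 to -0.0035 in Exp 2 when each library was left out, the values nearest 0 being without Str Exp 1 replicate 2 (-0.17) and without Str Exp 2 replicate 1 (-0.0035). Under the other alternatives the medians were 0.56 to 0.89 and -1.09 to -0.33. Of the 9 genes, 2 were called between the experiments in each of 4 alternatives. These were no filter (1336 of 25586 genes called over all), edgeR (1441 of 14053), DESeq2 (2093 of 14053) and the unassigned libraries in the region other than that of their title (2375 of 13814). After thinning it was 0 of the 7 tested, beside 574 of 8983 genes. With each library left out it was 0 to 2, beside 134 to 2021 of all genes. Of the other astrocyte genes, calls between regions in the joint fit were 2 with DESeq2, beside 554 of 14053 genes over all. They were 1 with the unassigned libraries in the other region, beside 440 of 13814, and 0 with each library left out, beside 0 to 238 of all genes. In Exp 1 they were 9 without the filter, beside 822 of 24002 genes over all, and 1 with DESeq2, beside 384 of 14972. In Exp 2 they were 1 after thinning, beside 307 of 9099, and 1 with the unassigned libraries in the other region, beside 692 of 13254. With each library left out they were 0 to 37 in Exp 1 and 2 to 22 in Exp 2. Those fits leave 1 library in a region, and the calls over all genes changed as well, so no conclusion is drawn from these ranges. The shares of all genes called in the fits with 37 and 22 calls are given above. Calls of the other astrocyte genes between the experiments were 2 with library-size scaling, beside 1681 of 14053 genes over all. They were also 2 without the filter, with edgeR, with DESeq2 and with the unassigned libraries in the other region, beside the counts given above for the 9 genes. With each library left out they were 0 to 11, beside 134 to 2021 of all genes. Library-size scaling moved the median of all genes between the experiments to -0.127, from -0.022, and no filter to 0.314. No filter moved it to -0.151 between regions in Exp 2. With the unassigned libraries in the other region, Aldh1l1 and Cspg5 in Exp 2 went to -0.53 and -0.87, and Gja1 went to -0.45 by title and -0.55 in the other region. The causes were not tested. Aqp4, Aldh1l1, Gfap, Gja1 and Cspg5 had 10 or fewer counts in Str Exp 2 replicate 3, where changes in them are poorly measured.

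With the replicate number as a block, 2 of the 9 genes were called between the experiments (Slc1a3 besides Gja1), and of the other astrocyte genes 1 was called in the joint fit, 2 and 15 within Exp 1 and Exp 2, and 2 between the experiments. Over all genes Exp 1 had 401 calls with the block and 395 without it, of 14972 tested. Exp 2 had 988 and 468 of 13486. The joint fit had 308 and 149 of 14053 between regions, and 1831 and 1480 between the experiments. Deviations of libraries with the same number correlated at -0.0340 in Exp 1 and 0.0787 in Exp 2 over 14053 genes, and in Exp 2 title numbers differ from those of the other label. The study took midbrain and striatum from the same 5 mice, so libraries of the 2 regions share animals, but the sources used here do not give which library is from which mouse, and the number was not taken to pair them.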

Other observations

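The 2 libraries of Exp 2 whose labels disagree on region held 1584013 counts (titled Mdb 2) and 5194739 counts (titled Str 2). The 9 astrocyte genes summed to 882 CPM in the former and 1520 CPM in the latter, both within the range of the assigned libraries. Slc1a3 was at 180 CPM in the former, above every assigned library, and at 80.6 CPM in the latter. It made up 20.4% of the counts of the 9 genes in the former (exact 95% binomial interval 18.3% to 22.7%) and 5.30% in the latter (4.82% to 5.82%). Aqp4 was at 24.9 and 50.2 CPM, Slc1a2 at 116 and 232 CPM, Aldoc at 282 and 524 CPM, Clu at 243 and 586 CPM, Aldh1l1 at 7.67 and 14.1 CPM, and Cspg5 at 10.2 and 17.8 CPM. Gja1 was at 13.4 and 11.3 CPM, above all 4 libraries of Exp 1, and Gfap at 4.47 and 4.20 CPM. Hepacam, of the wider list, was at 23.6 CPM in the former, below all 4 libraries of Exp 1, and at 63.0 CPM in the latter, above 3 of those 4.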
